A study of Hemigymnus melapterus and Thalassoma lunare and Coris batuensis with 46 samples.

Results

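Halichoeres melanurus and Coris batuensis are wrasses (Labridae) that differ in feeding habit: the labels call the former a facultative cleaner, a fish that takes parasites from other fishes some of the time, and the latter a non-cleaner. The comparison used 17 of the 46 libraries of the series, 8 of Halichoeres and 9 of Coris, taken by the species in the sample label. All fish of the series were female, and the labels name no treatment or altered gene and give no age. Each library came from a forebrain slice 300 µm thick, the second from the front, and capture preceded death by 6 to 28 minutes. The pair was chosen with earlier results of these data known, among them that this cleaner and this non-cleaner differed in the fewest transcripts of all species pairs.

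The slice held the pallial areas Dl and Dm with parts of the septum and striatum. In teleosts Dl is held to be the counterpart of the hippocampus and is tied to spatial and relational memory, and Dm that of the basolateral amygdala, tied to emotional learning. Cleaning interactions call on recognition of clients and on learning from past encounters, which is why pallial tissue is of interest in fishes that clean. The design has 1 species of each status in this comparison, so cleaning status, species identity and the fit of each species' sequences to the shared reference cannot be told apart, and a p-value over fish speaks of these 2 species alone.

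Libraries were made by 3′ tag sequencing, which reads the end of each polyadenylated transcript. Counts were assigned to transcripts with ENSONIT identifiers and, in a second set of files, to genes with Ldim_g identifiers. The files do not pair either kind with gene names, so neither the roles of the features nor the markers of the tissue could be examined, and the features are described by level, difference and pattern across species. Each library had 14800 to 43814 ENSONIT counts and 14927 to 49690 Ldim_g counts, and the shallowest were Coris 10 and Halichoeres 5. All 17 libraries correlated best with the other libraries of their own species in both sets, with r from 0.869 to 0.954 (ENSONIT) and from 0.911 to 0.962 (Ldim_g) against at most 0.839 and 0.861 with the next species. These correlations run across features, which are not replicates. The library labelled Halichoeres 2 was left out because it had r = 0.935 with Thalassoma lunare and 0.714 with its labelled species by ENSONIT counts, and by Ldim_g counts 0.945 and 0.756.

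Transcripts rose and fell in similar numbers. Of 441 ENSONIT transcripts with enough counts to test, 91 were higher in Halichoeres (20.6%) and 87 lower (19.7%) at an adjusted p below 0.05 by edgeR's quasi-likelihood test with Benjamini-Hochberg adjustment. Together that was 178 transcripts, or 40.4% of those tested. The scaling of the libraries centres the differences (median log2 fold change 0.02 over all 441), so the near balance is not itself a result. Values are given in CPM, the usual scaling of counts by library size, here over the tested transcripts, and 1 count in the median library was worth 60.4 CPM. The transcripts called higher held 30.2% ± 1.42 (SD, n = 8) of the tested counts in Halichoeres and 18.4% ± 1.44 (SD, n = 9 Coris fish). Those called lower held 15.03% ± 1.11 (SD, n = 8 Halichoeres fish) and 26.5% ± 2.64 (SD, n = 9 Coris fish). These shares were set by the calls themselves and only describe how much of the measured RNA the calls cover. In tissue slices, fewer cells of a type and less RNA per cell cannot be told apart.

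Most differences were modest in size. The median log2 fold change, Halichoeres minus Coris, was 0.76 among transcripts called higher and -0.83 among those called lower, and the median absolute value over all 441 was 0.35. Of the 178 called transcripts, 31 differed by less than 0.5 on the log2 scale, 82 by 0.5 to 1, 45 by 1 to 2 and 20 by at least 2. Of these 20, 8 were higher and 12 lower in Halichoeres. The 8 libraries of Halichoeres and the 9 of Coris did not overlap in CPM for 50 transcripts (11.3% of those tested), 25 above and 25 below, and all 50 were among the called.

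**Figure D1:**
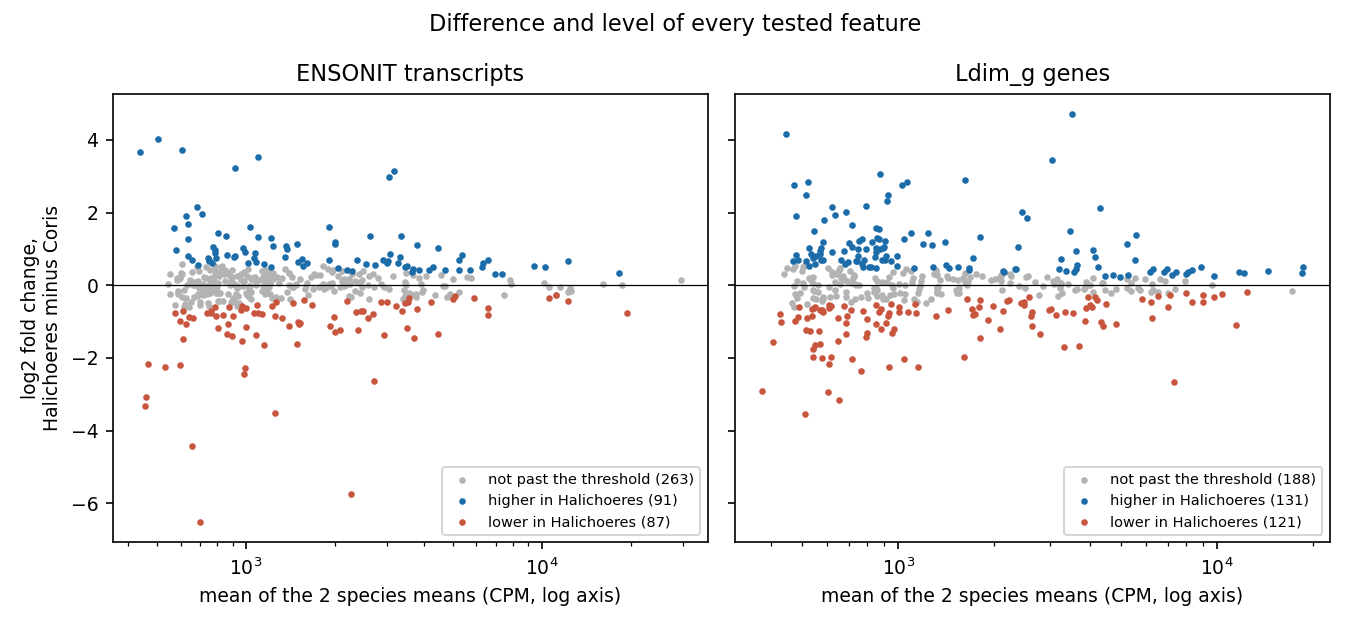
Log2 fold change (Halichoeres minus Coris, vertical axis) against the mean of the 2 species means in CPM (log axis) for each tested feature of both sets of counts. The points called higher (91 transcripts and 131 genes) and called lower (87 and 121) lie on both sides of 0 at all levels, and the largest transcript difference is -6.52 on the log2 scale.

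Named transcripts are the 2 largest rises and the 2 largest falls among called transcripts whose libraries did not overlap, 25 in each direction. They were picked for size from these same data, and each passed the filter on low counts through the species where it was high. Their fold changes and adjusted p-values are therefore given as descriptions and support nothing further. ENSONIT00000002716.1 lay at 684 to 1218 CPM in Halichoeres (median 956, 10 to 20 counts per fish) and at 0 to 170 CPM in Coris (median 52.1, 0 to 3 counts per fish). Every Halichoeres fish was above every Coris fish, and 4 of the 9 Coris fish had no count. The means were 955 ± 199 CPM (SD, n = 8) and 53.6 ± 63.1 CPM (SD, n = 9), a log2 fold change of 4.02 (SE 0.56, adjusted p = 2.85e-10 by edgeR).

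ENSONIT00000004910.1, the second largest rise, lay at 810 to 1723 CPM in Halichoeres (median 1064) and at 0 to 185 CPM in Coris (median 62.8). The groups did not overlap, and the lowest Halichoeres fish was 4.37-fold above the highest Coris fish. It averaged 1138 ± 277 CPM (SD, n = 8) against 72.3 ± 65.7 CPM (SD, n = 9), a log2 fold change of 3.71 (SE 0.45, adjusted p = 7.63e-11 by edgeR).

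The largest fall was that of ENSONIT00000011513.1, which was close to absent from Halichoeres. It had 1 count in 1 of the 8 Halichoeres libraries, where it stood at 61.5 CPM, and 12 to 30 counts in each of the 9 Coris libraries, at 765 to 1892 CPM (median 1445). The pooled level in Coris was 186-fold that in Halichoeres, with an exact 95% interval of 33.0 to 7400 that covers counting error only. The fitted log2 fold change of -6.52 (SE 1.36, adjusted p = 2.42e-13 by edgeR) depends on the model, since Halichoeres had a single count.

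ENSONIT00000011303.1 was the most abundant of the named transcripts in Coris. It lay at 3511 to 7296 CPM in Coris (median 4095, 54 to 73 counts per fish) and at 0 to 185 CPM in Halichoeres (median 61.6, 0 to 3 counts per fish). The highest Coris value came from the shallow library Coris 10, and the lowest Coris fish was 19.0-fold above the highest Halichoeres fish. The means were 71.5 ± 71.9 CPM (SD, n = 8 Halichoeres fish) and 4457 ± 1127 CPM (SD, n = 9 Coris fish), a log2 fold change of -5.75 (SE 0.48, adjusted p = 3.66e-16 by edgeR).

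**Figure D2:**
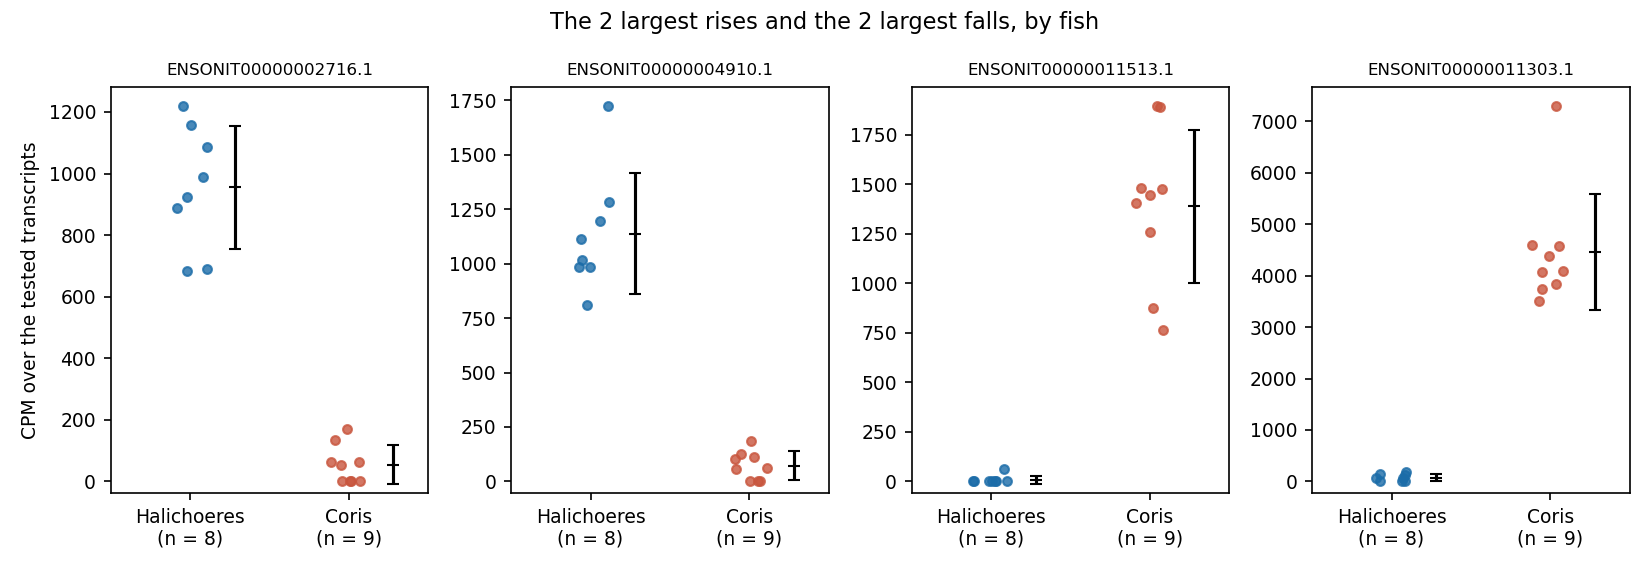
CPM over the tested transcripts in each fish for the 2 largest rises and the 2 largest falls, with each panel on its own linear axis. Points are fish (8 Halichoeres, 9 Coris), and the mark beside them is the mean ± 1 SD. In all 4 panels the fish of the 2 species occupy separate ranges, and the highest Coris value of ENSONIT00000011303.1, 7296 CPM, is from Coris 10.

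The library labelled Halichoeres 2, left out of these values, had 1 count of ENSONIT00000002716.1 and 1 of ENSONIT00000004910.1, fewer than any Halichoeres fish in the comparison. It had 0 counts of ENSONIT00000011513.1 and 6 of ENSONIT00000011303.1. With this library kept as labelled, 71 transcripts were called higher and 78 lower of 422 tested, and 140 of the 178 were called again, all in the same direction. The first 2 named transcripts then no longer passed the filter on low counts.

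Among the 20 most abundant transcripts none was called with a difference of 1 or more on the log2 scale. They held 26.3% of the tested counts, and 8 of them were called, 4 higher and 4 lower, with log2 fold changes between -0.75 and 0.66. Over all 441 tested transcripts 40.4% were called, and 14.7% were called with a difference of at least 1. The most abundant transcript lay at 25920 to 37800 CPM in Halichoeres (median 28920) and at 17100 to 41210 CPM in Coris (median 27660), with full overlap. Its log2 fold change was 0.15, with a 95% interval of -0.13 to 0.43 (edgeR adjusted p = 0.415). The second most abundant lay at 7467 to 17840 CPM in Halichoeres and at 18700 to 42690 CPM in Coris, and the groups did not overlap (log2 fold change -0.75, SE 0.15, edgeR adjusted p = 0.000132). Both were singled out by level alone.

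Calls were more frequent where counts were higher. Among the 147 most abundant tested transcripts (1985 to 29470 CPM) 50.3% were called, against 34.0% of the 147 least abundant (437 to 902 CPM). The median absolute log2 fold change was 0.34 in the former and 0.41 in the latter, while the median standard error was 0.15 and 0.25, respectively.

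Many transcripts were bounded to a small difference. For 299 of the 441 (67.8%), the 95% interval of the log2 fold change lay within -1 to 1, which means a difference of less than 2-fold in either direction. Of these 299, 247 were not called and 52 were called with a small difference. For 82 transcripts the interval lay within -0.5 to 0.5. Of the 263 transcripts that were not called, 16 had an interval that reached past 1 in size, so for them a difference of that size was not excluded.

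**Figure D3:**
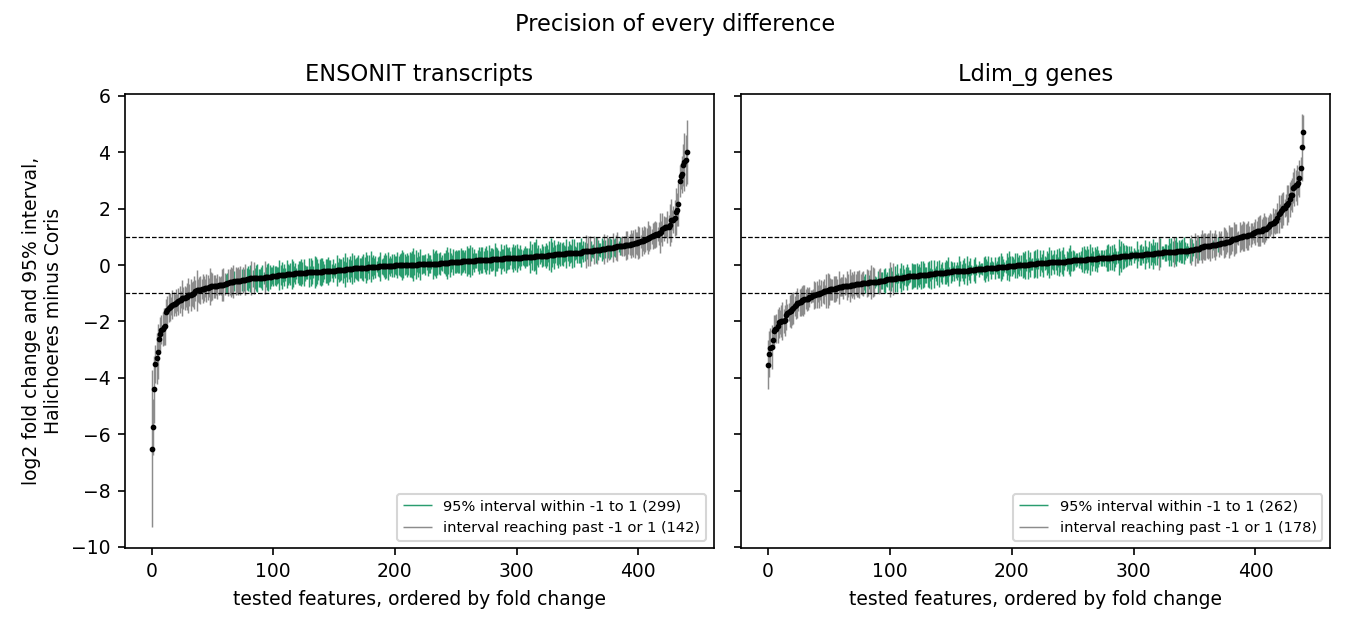
Log2 fold change (black points) and its 95% interval (lines) for every tested feature, ordered from the largest fall to the largest rise in Halichoeres. Green lines lie within -1 to 1, the dashed limits, and number 299 of 441 transcripts and 262 of 440 genes.

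The filter on low counts shaped which transcripts could be seen. The minimum count of 10 stood for 317 CPM over all assigned counts, and 352 of the tested transcripts had a mean above that in both species. Of these, 120 (34.1%) were called. Another 41 were above it in Halichoeres alone and 46 in Coris alone, and 27 and 31 of them were called, but since these reached the test through the species where they are high, their share of calls supports nothing. With a minimum count of 3, 1409 transcripts could be tested and 251 were higher and 250 lower, 35.6% of those tested. Of the 178 first calls, 161 were called again in the same direction and 0 in the opposite one.

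The Ldim_g counts gave a larger share of calls. Of 440 tested genes, 131 were higher in Halichoeres (29.8%) and 121 lower (27.5%), 57.3% together (edgeR quasi-likelihood test, adjusted p below 0.05). The libraries of the 2 species did not overlap for 76 genes (17.3%), 42 above and 34 below. Of the 252 called genes, 94 differed by at least 1 on the log2 scale (21.4% of the tested genes). Of the 178 called transcripts, 65 did (14.7% of the tested transcripts). The biological coefficient of variation, the spread between fish beyond counting error, was 0.154 here and 0.180 in the ENSONIT counts. Among the 20 most abundant genes 18 were called, 10 higher and 8 lower, and only 1 of them by 1 or more on the log2 scale, a fall of 1.09. The genes called higher held 41.1% ± 1.33 (SD, n = 8) of the tested counts in Halichoeres and 25.9% ± 1.14 (SD, n = 9) in Coris, and those called lower 21.5% ± 1.05 and 36.2% ± 1.26. The least abundant 147 genes had about as many calls (57.8%) as the most abundant 147 (60.5%), and the median size of the log2 fold change was 0.63 and 0.33. The interval lay within -1 to 1 for 262 genes, of which 181 were not called. That was 59.55% of the tested genes, a smaller share than the 67.8% of the transcripts. Identifiers of the 2 sets could not be matched, so how many genes stand behind calls in both is not known.

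The largest rise among the Ldim_g genes was also the most abundant of the extreme features in Halichoeres. It lay at 3675 to 10040 CPM there (median 6498, 73 to 196 counts per fish) and at 48.2 to 574 CPM in Coris (median 194, 1 to 10 counts per fish), with every fish of both species showing the gene. The log2 fold change was 4.72 (SE 0.31, adjusted p = 4.08e-18 by edgeR). The next rise lay at 518 to 1161 CPM in Halichoeres and at 0 to 144 CPM in Coris, where 5 of 9 fish had no count (log2 fold change 4.18, SE 0.58, edgeR adjusted p = 4.09e-11). The groups did not overlap for either gene.

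The largest falls in this set were smaller than those of the transcripts. The first gene lay at 0 to 166 CPM in Halichoeres and at 634 to 1262 CPM in Coris (log2 fold change -3.53, SE 0.42, edgeR adjusted p = 4.09e-11). The second lay at 40.0 to 214 CPM in Halichoeres and at 241 to 2041 CPM in Coris, so that the groups came within 1.12-fold of each other (log2 fold change -3.15, SE 0.40, edgeR adjusted p = 7.97e-10). The 4 genes were chosen by the same rule as the transcripts and also passed the filter through the species where they were high. Their fold changes and adjusted p-values are descriptions too. With Halichoeres 2 kept as labelled, 103 genes were called higher and 107 lower of 423 tested, 204 of the first 252 kept their call and direction, and the second rise and the second fall no longer passed the filter on low counts.

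The mean share of reads that reached a gene was slightly higher in Halichoeres, but the difference did not pass the threshold (two-sided exact permutation p = 0.0609, adjusted p = 0.186). The ranges overlapped, at 4.64% to 5.47% in Halichoeres and 4.34% to 5.20% in Coris. Of all reads listed in the Ldim_g files, 58.8% ± 0.989 (SD, n = 8) were unaligned in Halichoeres and 58.1% ± 0.594 (SD, n = 9 Coris fish). Reads aligned outside genes made up 33.8% ± 0.895 and 34.7% ± 0.619, and reads in genes 4.97% ± 0.330 and 4.66% ± 0.306. Of 8 measures of the libraries the share outside genes had the smallest p (two-sided exact permutation test over fish, p = 0.0315), and none passed after Benjamini-Hochberg adjustment over the 8 (adjusted p from 0.186 to 0.456). Assigned depth averaged 32761 ± 7767 ENSONIT counts (SD, n = 8 Halichoeres fish) and 29918 ± 6161 (SD, n = 9 Coris fish), exact permutation p = 0.418 (adjusted p = 0.456). Assigned Ldim_g counts ranged higher in Halichoeres, from 18204 to 49690, than in Coris, from 14927 to 34015. That difference in depth was not among the 8 measures and was not tested.

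Set beside the other species in 1 fit over 43 libraries, without the 3 libraries that stood apart (Halichoeres 2, Thalassoma 4 and Hemigymnus 4), the pair had the fewest calls. By edgeR, 253 of 701 transcripts passed the threshold of 0.05 in this pair, while each of the other 9 pairs had 272 to 360. In the Ldim_g counts it had 365 of 752 genes, and the other pairs 410 to 485. The median absolute log2 fold change was 0.40 for the pair and 0.45 to 0.54 for the others in the transcripts, and 0.53 against 0.58 to 0.74 in the genes. The pair was chosen with its few transcript calls already known, so its rank here restates that choice and is a description. Pairs share species, so the counts are not independent, and the differences between pairs in these counts were not tested. Library depth also differed between species, and its part in these counts was not tested. So did the share of unaligned Ldim_g reads, whose part was not tested either. It was 57.5% to 60.3% in Halichoeres, 57.5% to 59.2% in Coris and 58.2% to 62.5% in Thalassoma. In Hemigymnus it was 48.8% to 52.5% and in Labrichthys 45.4% to 49.0%.

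**Figure D4:**
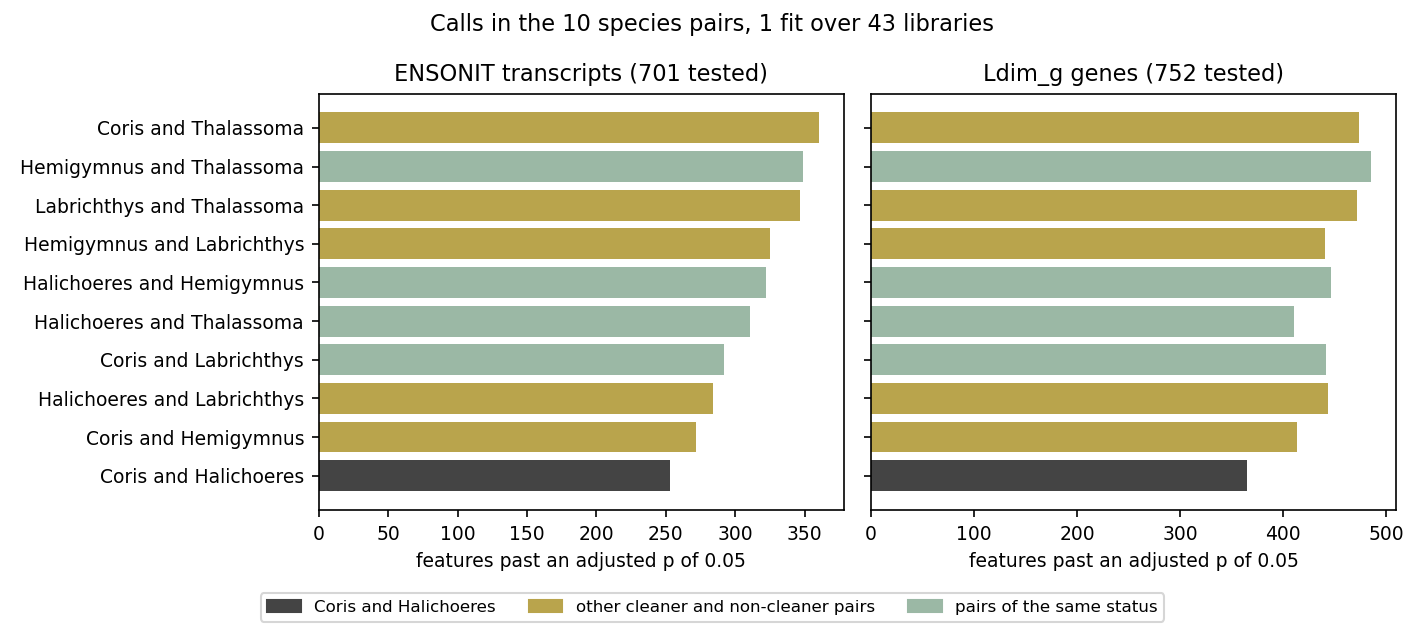
Number of features past an adjusted p of 0.05 (edgeR, horizontal bars) in each of the 10 species pairs, for transcripts (left) and genes (right), with dark bars for Coris and Halichoeres. The dark bars, 253 and 365, are the shortest, and the pair was chosen with its few transcript calls known. The other cleaner and non-cleaner pairs and the pairs of the same status are interleaved above them.

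Each of the 4 named transcripts had its highest mean in 1 of the compared species, and 1 of them had an intermediate level elsewhere. In that fit, ENSONIT00000002716.1 averaged 853 ± 172 CPM (SD, n = 8 Halichoeres fish) and 48.8 ± 56.9 CPM (SD, n = 9 Coris fish), against 26.3 ± 27.4 CPM (SD, n = 9 Thalassoma fish), 4.67 ± 14.0 CPM (SD, n = 9 Hemigymnus fish) and 14.4 ± 20.6 CPM (SD, n = 8 Labrichthys fish). ENSONIT00000004910.1 averaged 1021 ± 267 CPM (SD, n = 8 Halichoeres fish) and between 66.4 and 117 CPM in the other 4 species. Neither Thalassoma nor Hemigymnus, the other facultative cleaners, came near the Halichoeres level of these transcripts, with highest values of 206 and 268 CPM for the second.

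The falls were high in Coris and not in Labrichthys unilineatus, the other non-cleaner. ENSONIT00000011513.1 averaged 1264 ± 343 CPM (SD, n = 9 Coris fish) and 75.6 ± 93.1 CPM (SD, n = 8 Labrichthys fish), and Thalassoma stood at 82.2 ± 75.3 CPM (SD, n = 9). ENSONIT00000011303.1 had 3 levels. It averaged 4064 ± 1003 CPM (SD, n = 9 Coris fish), 607 ± 133 CPM (SD, n = 8 Labrichthys fish) and 580 ± 278 CPM (SD, n = 9 Thalassoma fish), and 90.8 ± 68.8 CPM (SD, n = 9 Hemigymnus fish) and 64.4 ± 65.2 CPM (SD, n = 8 Halichoeres fish). Labrichthys and Thalassoma, of different status, lay within 1 SD of each other, as did Hemigymnus and Halichoeres. The means of both non-cleaners were nevertheless above the mean of every cleaner. Hemigymnus and Thalassoma together stood at -1.37 (SE 0.29) relative to Labrichthys on the log2 scale, the same sign as Halichoeres minus Coris.

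**Figure D5:**
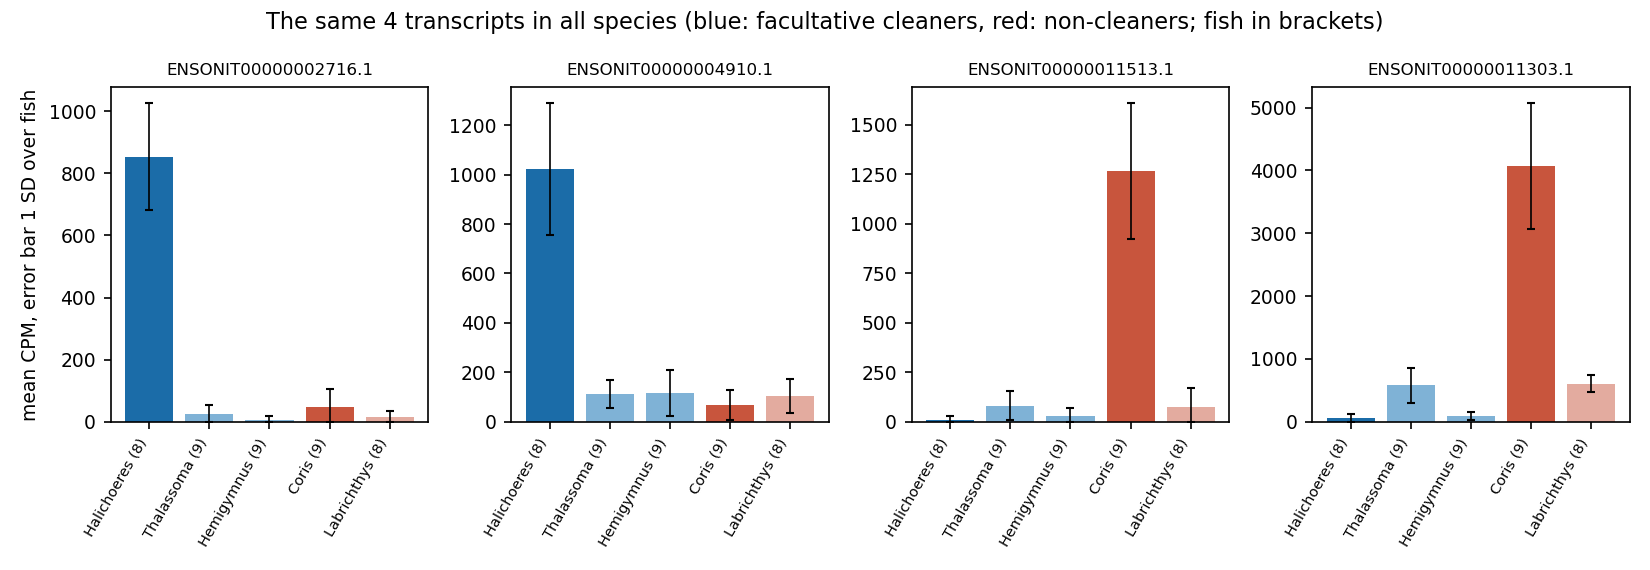
Mean CPM (bars from 0) and 1 SD over fish (error bars, not drawn below 0) of the 4 named transcripts in all species, facultative cleaners in blue and non-cleaners in red. Each transcript is high in 1 of the 2 compared species, and for ENSONIT00000011303.1 Labrichthys (607 CPM) and Thalassoma (580 CPM) lie between Coris and the other species.

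Of the 4 named genes of the Ldim_g set, the largest rise and the second fall showed patterns not seen among the named transcripts. The second rise was high in Halichoeres alone and the largest fall in Coris alone. The largest rise separated Coris from all other species: it averaged 237 ± 156 CPM (SD, n = 9 Coris fish) and 6072 ± 1810 CPM (SD, n = 8 Halichoeres fish), but also 5401 ± 1240 CPM (SD, n = 8 Labrichthys fish), 5195 ± 1188 CPM (SD, n = 9 Hemigymnus fish) and 2696 ± 459 CPM (SD, n = 9 Thalassoma fish). The second rise averaged 767 ± 203 CPM (SD, n = 8 Halichoeres fish) and 32.5 to 48.6 CPM in the other 4 species. The largest fall averaged 881 ± 195 CPM (SD, n = 9 Coris fish) and 23.5 to 88.3 CPM elsewhere. The second fall was as high in Hemigymnus, a cleaner, at 1113 ± 439 CPM (SD, n = 9), as in Coris, at 1107 ± 451 CPM (SD, n = 9).

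A comparison of cleaners with a non-cleaner that shares no fish with the pair was available in the mean of Hemigymnus and Thalassoma minus Labrichthys (26 libraries). It called 289 of its own 641 tested transcripts (45.1%) and 403 of 678 genes (59.4%). Of 411 transcripts tested in both, 180 were called in that contrast (43.8%). Of the 155 called in the pair, 84 were called there too, which was 54.2% of the pair's calls and 46.7% of the calls of the other contrast. The direction was the same for 52 of the 84 (61.9%), 23 higher and 29 lower in cleaners both times, and opposite for 32. Over all 411 transcripts, called or not, the sign was the same for 51.6%. The library labelled Thalassoma 4 had r = 0.949 with Halichoeres and 0.742 with its labelled species by ENSONIT counts, and Hemigymnus 4 had 0.544 with its own. With both kept as labelled, so that a library that matches Halichoeres enters the second contrast, the direction was the same for 43 and opposite for 20. In the Ldim_g set, 236 of 405 genes were called in that contrast (58.3%), 139 of the pair's 231 calls were among them, and the direction was the same for 72 (51.8%) and opposite for 67, beside the same sign for 54.3% of all 405 genes. In the fit over 43 libraries the effects of the 2 contrasts differed, by a test of the difference itself, for 295 of 701 transcripts (42.1%) and 396 of 752 genes (52.7%) at an edgeR adjusted p below 0.05.

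These counts differed with the cleaner that stood in the other contrast. Set against Labrichthys alone, Thalassoma gave the same direction for 70 of 107 transcripts called in both (65.4%) and for 96 of 158 genes (60.8%), and Hemigymnus for 37 of 79 transcripts (46.8%) and 54 of 132 genes (40.9%). Over all features tested in both, the sign was the same for 52.3% of transcripts and 58.3% of genes with Thalassoma, and for 46.2% and 49.1% with Hemigymnus. Thalassoma minus Labrichthys was called for 52.3% of those transcripts and 62.0% of those genes, and Hemigymnus minus Labrichthys for 43.1% and 56.3%. Hemigymnus minus Thalassoma, a contrast between 2 cleaners that also shares no fish with the pair, was called for 337 of its 641 transcripts (52.6%) and 448 of its 678 genes (66.1%), and for 213 of the 411 transcripts (51.8%) and 270 of the 405 genes (66.7%). Of the pair's called features, 100 transcripts and 161 genes were called in it. The direction was the same for 37 transcripts (37.0%) and 53 genes (32.9%) and opposite for 63 and 108. An opposite direction means that Thalassoma minus Hemigymnus had the sign of Halichoeres minus Coris. Over all features tested in both, the sign was the same for 42.3% of transcripts and 42.7% of genes. None of these shares was tested against its share over all features.

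The other species were also placed relative to the midpoint of the pair on the log2 scale. For the 91 transcripts called higher in Halichoeres, Thalassoma lay on the Halichoeres side for 42, Hemigymnus for 29 and Labrichthys for 32. For the 87 called lower the counts were 62, 46 and 46. Among the 263 transcripts that were not called the shares were 50.2%, 50.6% and 50.2%. In the Ldim_g set, of the 131 genes called higher, 62, 39 and 57 were on the Halichoeres side, and of the 121 called lower, 82, 63 and 74. Over all 252 called genes the shares were 57.1%, 40.5% and 52.0%, and over the 188 that were not called 56.4%, 48.9% and 46.8%. These counts use the same Halichoeres and Coris fish as the calls and are a description. The filter on low counts also used only Halichoeres and Coris libraries, and some called features passed it through the species where they were high. Another species with a low level of such a feature lies on the side of the low species in either list. These counts therefore cannot show likeness to Halichoeres or to Coris, and the part of the filter in them was not tested.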

How the data were processed

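The authors deposited 2 tables of raw counts per library, per transcript (ENSONIT) and per gene (Ldim_g). Per the submitters' processing notes, cutadapt 2.8, SAMtools and BWA were used. Which reference and counter made the counts is not given here. The unnamed ENSONIT line held 0 counts. Lines that name no gene held 58.4% (unaligned), 34.3% (outside genes), 2.46% (low quality), 0.00532% (ambiguous) and 0% (not unique) of the Ldim_g reads of the 17 libraries and were left out of library sizes and tests. No molecular identifiers are mentioned, so PCR copies may be counted, and counting intervals cover counting error only.

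The members, lists and tests were chosen with earlier results of these data known. The 17 libraries were fitted with edgeR 4.0.16 (R 4.3.3): filterByExpr by species (minimum count 10, minimum total 15), TMM, and a quasi-likelihood test of Halichoeres against Coris across all kept features, adjusted by Benjamini-Hochberg (threshold 0.05). Features listed numbered 26788 transcripts and 28134 genes, and 21664 and 12603 had a count in these libraries. The tested ones held 51.7% and 67.8% of assigned counts. Standard errors and 95% intervals came from the fitted weights and the quasi-likelihood dispersion, while p-values came from the F test. The script was tested on simulated data. Named features were the 2 largest rises and 2 largest falls per set by absolute log2 fold change, among called features with no overlap of CPM between species and at least 10 counts per fish on average in the higher species. Library measures were compared by two-sided exact permutation tests.

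The labels number the samples and state no batch; p-values measure the spread between these samples. Gene lists and tissue markers could not be applied without gene names. No 2 libraries of a species were identical (64 pairs per set); the highest chi-square p was 8.61e-09 for transcripts and 0.00592 for genes. Alternatives were the DESeq2 1.42.0 Wald test, other normalizations, filters and minimum folds, a fit over all species, thinning, a block on the sample number, and other choices of libraries.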

Additional observations from a re-analysis of the deposited data

Results flagged for a closer look

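Single fish stood apart from the others of their species in 6 of 32 groups of 8 or 9 fish, by the gap to the nearest fish relative to the range of the group. Chance gives about 1 in 20 for independent groups. These groups are not independent, since several flags are of the shallow library Coris 10, so no excess over that rate is claimed. Coris 10 had 14800 ENSONIT counts (the other Coris fish 26789 to 35321), 4732 transcripts detected (7183 to 8235) and 287241 reads listed in the Ldim_g files (511825 to 704062). Its 7296 CPM of ENSONIT00000011303.1 lay above the 3511 to 4589 CPM of the other Coris fish. Halichoeres 5 had 5412 transcripts detected, against 7415 to 8986 in the other Halichoeres fish. Halichoeres 9 held the only Halichoeres count of ENSONIT00000011513.1, at 61.5 CPM.

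The difference between Halichoeres and Coris was compared with that between the mean of Hemigymnus and Thalassoma and Labrichthys in the fit over 43 libraries. The effects of all 8 named features differed, and since they were picked for a large effect in the first pair, that is a description. The differences of log2 fold changes were 4.21 (SE 1.18, edgeR adjusted p = 0.00463) for ENSONIT00000002716.1, 3.68 (SE 0.61, adjusted p = 4.86e-07) for ENSONIT00000004910.1, -6.24 (SE 1.72, adjusted p = 7.77e-07) for ENSONIT00000011513.1 and -4.43 (SE 0.58, adjusted p = 1.54e-10) for ENSONIT00000011303.1.

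For the named Ldim_g genes the differences were 5.20 (SE 0.32) and 4.08 (SE 0.90) for the rises and -4.13 (SE 0.81) and -6.55 (SE 0.68) for the falls. The last gene ran in opposite directions, with -3.21 (SE 0.40) for Halichoeres minus Coris and 3.34 (SE 0.55, edgeR adjusted p = 1.4e-10) for the other cleaners minus Labrichthys. So did the largest rise, with 4.66 (SE 0.29) and -0.53 (SE 0.13, edgeR adjusted p = 0.000336). ENSONIT00000011303.1 ran in the same direction, with -5.80 (SE 0.50) and -1.37 (SE 0.29, edgeR adjusted p = 2.02e-05). For the remaining named features the second effect did not pass the threshold.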

How the results depend on the processing

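The filter and the minimum fold set the counts of calls most. Calls higher and lower were 578 and 490 transcripts (of 21664) and 566 and 423 genes (of 12603) with no filter, 251 and 250 (of 1409) and 276 and 270 (of 1259) with a minimum count of 3, and 13 and 15 transcripts and 28 and 23 genes when tested against an absolute log2 fold change above 1. Thinned to equal depth they were 39 and 38 (of 197) and 58 and 70 (of 253). Together that was 39.1% of the transcripts and 50.6% of the genes that could then be tested. In the fit over all species 114 and 139 transcripts (of 701) were called. DESeq2, its size factors and unscaled totals gave 177 to 180 transcripts and 247 to 254 genes in all. Leaving out 1 fish in turn gave 80 to 96 transcripts higher and 79 to 103 lower, and 114 to 131 genes higher and 111 to 133 lower. In none of these fits was a first call made again in the opposite direction, but some first calls were lost. With no filter, 122 of the 178 transcript calls and 175 of the 252 gene calls were made again. With the block on the sample number 149 and 225 were, and without 1 fish 154 to 174 and 221 to 243. The named features kept direction and call in every alternative in which they passed the filter. The second Ldim_g fall passed the filter in 17 alternatives and the second Ldim_g rise in 19, against 28 for the largest Ldim_g rise. All were picked for large differences in these same fish, so keeping the call is a description and supports nothing further. Features of opposite direction in both contrasts of status were 67 in the Ldim_g counts, and 20 transcripts with Thalassoma 4 and Hemigymnus 4 kept. Same-numbered fish of the 2 species mostly did not deviate together. Correlations over 7 numbers were -0.113 to 0.272 in the transcripts and -0.155 to 0.151 in the genes. In each set 1 was above 0.1, that of the fish numbered 1. With a replicate block on the number, 83 and 71 transcripts and 125 and 112 genes were called.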
